A study of Homo sapiens with 6 samples.

Results

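Integrins and the proteins of focal adhesions were examined as a set of 41 genes in RNA sequencing of H1299 cells, an established human lung carcinoma line, with and without knockdown of CCNB1, the gene of cyclin B1. The genes were chosen by symbol as 11 integrin alpha subunits, 7 beta subunits, 4 talins and kindlins, 3 kinases, 10 adaptors and 6 actin linkers, and each matched 1 of the 58336 rows of the count table. A filter on low counts kept 17349 rows for testing, among them 40 of the 41. The exception was ITGB2, the beta subunit of leukocyte integrins, with counts of 6, 3 and 3 in the mock libraries and 9, 6 and 18 in the knockdown libraries.

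The mock group was 3 libraries of H1299 cells with the vector labelled PLVT7_MOCK and the genotype WT. The knockdown group was 3 libraries of H1299 cells with the vector labelled PLVT7_CCNB1 and the genotype CCNB1 knockdown, which the design text of the series names shCCNB1, a short hairpin RNA. Both groups were kept in RPMI-1640 with 10% fetal bovine serum, and stable transfectants were selected with 1 µg/ml puromycin after confluence. The sources do not say whether the transfectants were clones or pools, nor whether libraries of a group were separate cultures, so any p-value covers variation among these 6 libraries that could be technical in whole or in part. The comparison asks which transcripts differ between the groups.

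The libraries held 28122665 to 30332989 counts. Levels of a gene are given as CPM, its counts scaled by the library's TMM-adjusted size. Before that adjustment, 3 counts were worth 0.0989 to 0.107 CPM. Levels of different members are set side by side as the deposited FPKM, which is per length. Cell type markers are summed in CPM, which is not per length. CCNB1 stood at 323, 305 and 294 CPM in mock libraries 1, 2 and 3 and at 19.9, 29.9 and 16.1 CPM in knockdown libraries 1, 2 and 3, a log2 fold change of -3.81 (SE 0.22, adjusted p = 0.000215 in edgeR's quasi-likelihood test). Markers of leukocytes and endothelium were at or near 0, with summed levels of at most 1.00 and 1.63 CPM and with PTPRC and CD3E at 0 counts in every library. The lung adenocarcinoma markers, the tissue named in the labels, summed to at most 1.11 CPM in any library.

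Knockdown library 2 stood apart from the other knockdown libraries over all genes. The chi-square per degree of freedom between libraries, over 16902 to 17690 genes, was 28.3 to 33.6 between library 2 and the mock libraries, 83.6 and 75.6 between library 2 and knockdown libraries 1 and 3, and 27.4 between those 2. Library 2 was below all 3 mock libraries in 15 of the 40 tested members, against 28 in library 1 and 22 in library 3. Of all tested genes, 27.3%, 32.2% and 32.2% were below all mock libraries in knockdown libraries 2, 1 and 3. Library 2 was singled out from such values, so results without it describe the remaining 5 libraries and are no separate evidence. They are given for every tested integrin subunit, for other named genes whose call they change, and for TLN2 and VCL.

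Integrins are receptors made of 1 alpha and 1 beta subunit that hold cells to the extracellular matrix, and the pairing sets which ligand is bound. Talins and kindlins bind the beta subunit's tail inside the cell and switch the receptor on. Focal adhesion kinase, Src and the adaptor paxillin assemble there and pass signals on, while vinculin, alpha-actinins, filamin and zyxin tie the site to actin filaments. In epithelial cells, laminin-binding integrins hold the cell layer to its basement membrane.

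The promoters of 4 members are shown because these had the smallest unadjusted p of the set in edgeR's test. Their transcripts were below every mock library in every knockdown library, as were those of ITGA2, ITGA3, ITGB8 and TLN1. ITGB1 (ENSG00000150093) encodes the beta-1 subunit and lies at chr10:32900319-33005792 on the minus strand of GRCh38. ITGA6 (ENSG00000091409), the alpha-6 subunit, lies at chr2:172427354-172506282 on the plus strand, and ITGA4 (ENSG00000115232), the alpha-4 subunit, at chr2:181457202-181536187 on the plus strand. PXN (ENSG00000089159), paxillin, lies at chr12:120210439-120265771 on the minus strand. Each window runs from 250 bases before to 50 bases after an annotated start, from RefSeq on GRCh38.p14, 5′ to 3′ on the gene's strand, and where a gene has several starts the window richest in G and C is printed. Capitals mark matches, on either strand, to the letters of 4 motifs: AP-1 (TGANTCA), TEAD (GGAATG), Sp1 (GGGCGG) and the CArG box, searched by name.
ITGB1 promoter, chr10:32958181-32958480, minus strand: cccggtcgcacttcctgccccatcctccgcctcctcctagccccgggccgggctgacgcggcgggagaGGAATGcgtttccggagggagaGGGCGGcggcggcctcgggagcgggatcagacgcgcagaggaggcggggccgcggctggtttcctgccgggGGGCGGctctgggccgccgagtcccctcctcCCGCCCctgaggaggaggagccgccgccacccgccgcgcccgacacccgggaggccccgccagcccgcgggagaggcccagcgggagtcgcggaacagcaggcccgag
ITGA6 promoter, chr2:172427336-172427635, plus strand: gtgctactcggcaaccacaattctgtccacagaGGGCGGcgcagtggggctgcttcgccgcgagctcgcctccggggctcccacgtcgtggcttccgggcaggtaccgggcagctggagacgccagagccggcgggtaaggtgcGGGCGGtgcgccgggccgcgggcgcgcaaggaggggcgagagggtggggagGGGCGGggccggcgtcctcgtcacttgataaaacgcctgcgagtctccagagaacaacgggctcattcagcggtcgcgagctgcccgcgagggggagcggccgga
ITGA4 promoter, chr2:181457136-181457435, plus strand: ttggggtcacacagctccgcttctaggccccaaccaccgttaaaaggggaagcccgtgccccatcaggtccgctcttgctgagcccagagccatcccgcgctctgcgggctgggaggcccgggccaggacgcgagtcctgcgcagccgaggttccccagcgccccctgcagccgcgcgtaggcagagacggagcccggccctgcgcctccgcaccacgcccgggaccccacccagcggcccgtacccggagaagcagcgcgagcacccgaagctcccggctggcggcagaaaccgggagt
PXN promoter, chr12:120265681-120265980, minus strand: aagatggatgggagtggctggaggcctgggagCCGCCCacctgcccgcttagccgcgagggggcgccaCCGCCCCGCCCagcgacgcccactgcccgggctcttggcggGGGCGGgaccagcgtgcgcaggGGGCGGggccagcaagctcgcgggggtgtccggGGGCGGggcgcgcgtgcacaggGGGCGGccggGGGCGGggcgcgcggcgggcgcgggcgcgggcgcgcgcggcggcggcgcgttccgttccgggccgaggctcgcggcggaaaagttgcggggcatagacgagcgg
The printed ITGB1, ITGA6 and PXN windows each held the Sp1 letters, that of ITGB1 also held the TEAD letters once, and the ITGA4 window held none of the 4. The Sp1 letters are all G and C, so the choice of window favours them. The other ITGB1 window held none of the 4 motifs. The other PXN window held the TEAD but not the Sp1 letters, and the other ITGA6 window held the Sp1 letters. RefSeq windows were found for 32 of the 41 genes, 61 windows in all. The Sp1 letters were in 32 of these 61 (52.5%) and in 45.0% of 35116 windows of all genes. The TEAD letters were in 8 (13.1%, against 14.0%), the AP-1 letters in 5 (8.20%, against 7.71%) and the CArG box in 3 (4.92%, against 1.29%). A match is a description of the letters and not a binding site.

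Most of the set was lower with the hairpin, and the integrin subunits more than the cytoplasmic proteins, but no member passed the test with all 6 libraries. Of the 40 tested members, 28 (70.0%) had a negative log2 fold change, beside 46.7% of all tested genes, and 12 a positive one. The median log2 fold change was -0.19, beside 0.02 over all tested genes. edgeR called 0 members at an adjusted p of 0.05, where it called 4 genes in all, or 0.0231% (0.0231% lower and 0% higher). The lowest adjusted p of a member was 0.0899, for ITGA6.

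At an unadjusted p of 0.05, 11 members (27.5%) were lower, beside 6.88% of all genes, and 1, TNS3, was higher, beside 8.14%. DESeq2 called 5 members, ITGA3, ITGA4, ITGA6, ITGB1 and PXN, all lower. They were 12.5% of those tested, beside 2.18% of all genes called lower and 1.27% called higher. The groups did not overlap, with every knockdown library below every mock library, for 8 members (20.0%), beside 8.84% of all genes: ITGA2, ITGA3, ITGA4, ITGA6, ITGB1, ITGB8, TLN1 and PXN. TNS3 was the 1 tested member with every knockdown library above every mock library, beside 10.9% of all genes.

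Without knockdown library 2, edgeR called 12 members lower and 1 higher. The 12 were ITGA2, ITGA3, ITGA4, ITGA5, ITGA6, ITGA10, ITGAV, ITGB1, ITGB3, ITGB8, PTK2 and PXN, of 40 tested members, beside 7.58% of all genes called lower in that fit. The 1 called higher was ITGAE, beside 6.24% of all genes. The median log2 fold change of the members was then -0.31. Leaving out mock library 1 instead gave a median of -0.09 and 0 calls. With all 6 libraries and no filter on low counts, edgeR called 8 members lower, beside 1.95% of all genes called lower and 1.17% called higher. Against the mock mean, the members' median was -0.43 in knockdown library 1, -0.05 in library 2 and -0.22 in library 3.

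**Figure D1:**
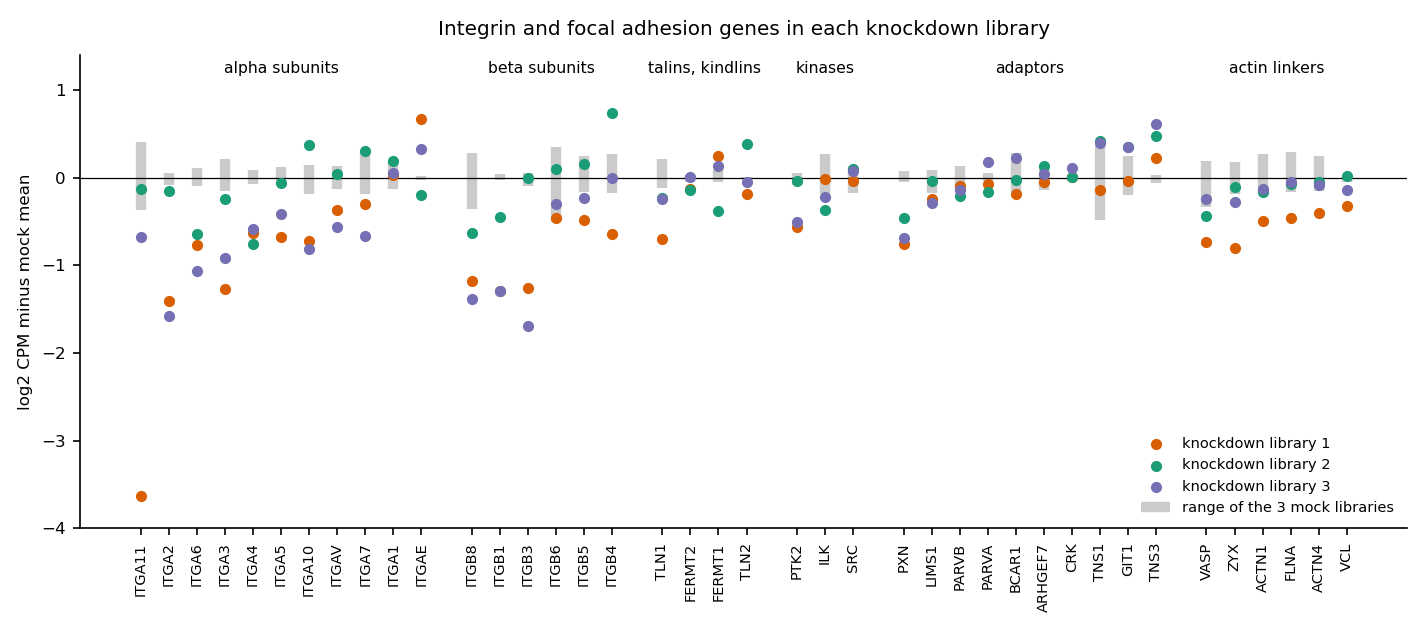
Log2 CPM of each tested gene in the 3 knockdown libraries (coloured points) minus the mock mean, grouped by role, with grey bars for the range of the 3 mock libraries. Most alpha and beta subunits lie below the grey bars in knockdown libraries 1 and 3, while library 2 lies within or near them for many, and PXN lies below and TNS3 above the grey bars in all 3 knockdown libraries.

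Among the 17 tested integrin subunits, 14 (82.4%) were lower and the median log2 fold change was -0.37. Per knockdown library the median was -0.68, -0.06 and -0.66 in libraries 1, 2 and 3. Among the 23 cytoplasmic members, 14 were lower and 9 higher, with a median of -0.14. The groups did not overlap for 6 of the 17 subunits, all lower (35.3%, beside 8.84% of all genes). Of the 23 cytoplasmic members, TLN1 and PXN were lower without overlap (8.70%), a share near that of all genes, and TNS3 was higher, beside 10.9% of all genes. Without library 2 the medians were -0.61 and -0.12. edgeR then called lower 10 subunits (58.8%) and 2 cytoplasmic members (8.70%), beside 7.58% of all genes, so that the cytoplasmic share was near the background. The difference between subunits and cytoplasmic members was itself not tested.

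Of the 11 alpha subunits, 9 were lower, and their median log2 fold change was -0.37, or -0.61 without library 2. ITGA6, whose protein binds laminin with the beta-1 or beta-4 subunit, was at 598, 689.7 and 633 CPM in mock libraries 1, 2 and 3 and at 377, 411 and 307 CPM in knockdown libraries 1, 2 and 3. All 3 knockdown libraries lay well below the mock range, library 2 among them. The log2 fold change was -0.81 (SE 0.14, adjusted p = 0.0899 in edgeR, 7.98e-05 in DESeq2), a mean 1.76-fold lower, and -0.91 (adjusted p = 0.00234) without library 2. Transcripts on the opposite strand, ITGA6-AS1 among them, overlap 5.37% of its exon length.

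ITGA4 encodes the subunit that binds VCAM-1 and fibronectin. It was at 39.8, 42.7 and 38.2 CPM in the mock libraries and at 25.9, 23.8 and 26.8 CPM in the knockdown libraries. The knockdown libraries were close to each other, and library 2 was the lowest of them. The log2 fold change of -0.66 (SE 0.12) had an adjusted p of 0.0959 in edgeR and 0.00118 in DESeq2, and was -0.61 (adjusted p = 0.00912) without library 2. Against the mock mean on the log2 scale, ITGA4 was at -0.63, -0.76 and -0.58 in knockdown libraries 1, 2 and 3. For ITGA6 (-0.76, -0.64 and -1.06) and PXN (-0.76, -0.46 and -0.69), library 2 was the nearest to mock but below every mock library.

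ITGA3 and ITGA2 were lower mainly in knockdown libraries 1 and 3. ITGA3, a partner of beta-1 in a laminin receptor, was at 1505, 1173 and 1247 CPM in mock libraries and 538, 1103 and 691 CPM in knockdown libraries, with a log2 fold change of -0.75 (SE 0.24, adjusted p = 0.192 in edgeR, 0.0370 in DESeq2). ITGA2, the alpha subunit of a collagen receptor, was at 71.7, 76.5 and 78.7 CPM in mock libraries and 28.4, 68.2 and 25.3 CPM in knockdown libraries. Libraries 1 and 3 were far below the mock range, and library 2 was just below it. The log2 fold change of ITGA2 was -0.90 (SE 0.32, adjusted p = 0.234) with all libraries and -1.50 (adjusted p = 0.000175) without library 2. For ITGA3 it was -1.09 (adjusted p = 0.00234) without library 2.

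ITGA5, the alpha subunit of the main fibronectin receptor, was at 153, 135 and 134 CPM in mock libraries and 88.0, 134 and 106 CPM in knockdown libraries, where library 2 overlapped the mock range. Its log2 fold change was -0.37 (adjusted p = 0.331), and -0.54 (adjusted p = 0.0201) without library 2. ITGAV, the alpha-v subunit of receptors for the RGD sequence in vitronectin and other ligands, was at 96.1, 115 and 104 CPM and 81.3, 108 and 70.8 CPM, a log2 fold change of -0.28 (adjusted p = 0.463) with overlapping groups, and -0.47 (adjusted p = 0.0334) without library 2. ITGA10, another collagen-binding subunit, was at 8.27, 7.66 and 6.58 CPM and 4.51, 9.72 and 4.24 CPM, with library 2 above every mock library. Its log2 fold change was -0.29 (adjusted p = 0.677) with all libraries and -0.78 (adjusted p = 0.0173) without library 2.

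The rest of the alpha subunits were scarce. ITGA11, a collagen-binding subunit, had 44, 32 and 26 counts in mock libraries and 1, 30 and 21 in knockdown libraries. Its log2 fold change was -1.01 (SE 0.66), and -1.71 without library 2. ITGA7, of the muscle laminin receptor, and ITGA1, a collagen-binding subunit, overlapped between groups, with log2 fold changes of -0.18 and 0.09, or -0.49 and 0.036 without library 2. For ITGA1, other genes, PELO on the same strand among them, overlap 6.39% of the exon length. The largest count of an overlapping gene was 5569, against 2402 of ITGA1, so its counts are uncertain. ITGAE, which pairs with beta-7 and binds E-cadherin, was at 11.6, 11.4 and 11.7 CPM in mock libraries and 18.4, 10.1 and 14.6 CPM in knockdown libraries. It was higher in libraries 1 and 3 and lower in library 2 (0.31 with all libraries, adjusted p = 0.503, and 0.51, adjusted p = 0.0415, without library 2). For ITGAE, 7.59% of the exon length overlaps genes on the other strand, so its counts are uncertain.

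Of the 6 tested beta subunits, 5 were lower, and the median of their log2 fold changes was -0.54, or -0.87 without library 2. Against the mock mean, their median was -0.91, 0.05 and -0.80 in knockdown libraries 1, 2 and 3, so in library 2 it was not lower. ITGB1, the partner of most alpha subunits in the set, was at 1383, 1453 and 1397 CPM in mock libraries 1, 2 and 3 and at 578, 1036 and 577 CPM in knockdown libraries 1, 2 and 3. Libraries 1 and 3 were nearly equal, and library 2 was higher but still below every mock library. The log2 fold change was -0.95 (SE 0.22, adjusted p = 0.118 in edgeR, 0.00156 in DESeq2), and -1.29 (SE 0.102, adjusted p = 0.000175) without library 2. With all libraries, the mean was 1.93-fold lower than in mock.

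ITGB3, the beta subunit of the vitronectin receptor with alpha-v, was at 8.90, 8.19 and 9.07 CPM in mock libraries and 3.60, 8.69 and 2.66 CPM in knockdown libraries. Library 2 lay within the mock range and libraries 1 and 3 far below it, so the log2 fold change was -0.81 (adjusted p = 0.332) with it and -1.48 (adjusted p = 0.00139) without it. Its exons are overlapped over 51.6% of their length by AC068234.1, which held 0 counts, so how its reads were assigned is uncertain. ITGB8, which with alpha-v activates latent TGF-beta, had only 24, 32 and 38 counts in mock and 14, 19 and 11 in knockdown libraries. These groups did not overlap, with a log2 fold change of -1.15 (SE 0.35, adjusted p = 0.175), and -1.43 (adjusted p = 0.0331) without library 2.

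ITGB5, the beta subunit of another vitronectin receptor, was at 201, 152 and 160.1 CPM in mock and 121, 189.6 and 145 CPM in knockdown libraries, with overlapping groups. The log2 fold change of ITGB5 was -0.17, and -0.36 (adjusted p = 0.130) without library 2. ITGB4, which pairs with alpha-6 and anchors hemidesmosomes to keratins, was at 112, 86.6 and 82.0 CPM in mock libraries and 59.7, 156 and 92.6 CPM in knockdown libraries. Its 3 knockdown libraries spread from below to above the mock range, library 2 being the highest of all 6. The log2 fold change was 0.13 (SE 0.29) and turned to -0.30 without library 2. ITGB6, another activator of latent TGF-beta with alpha-v, was near 1 CPM in both groups and overlapped, with a log2 fold change of -0.26, or -0.45 without library 2. AC092153.1, on the same strand, overlaps 20.6% of its exon length, so its counts are uncertain.

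**Figure D2:**
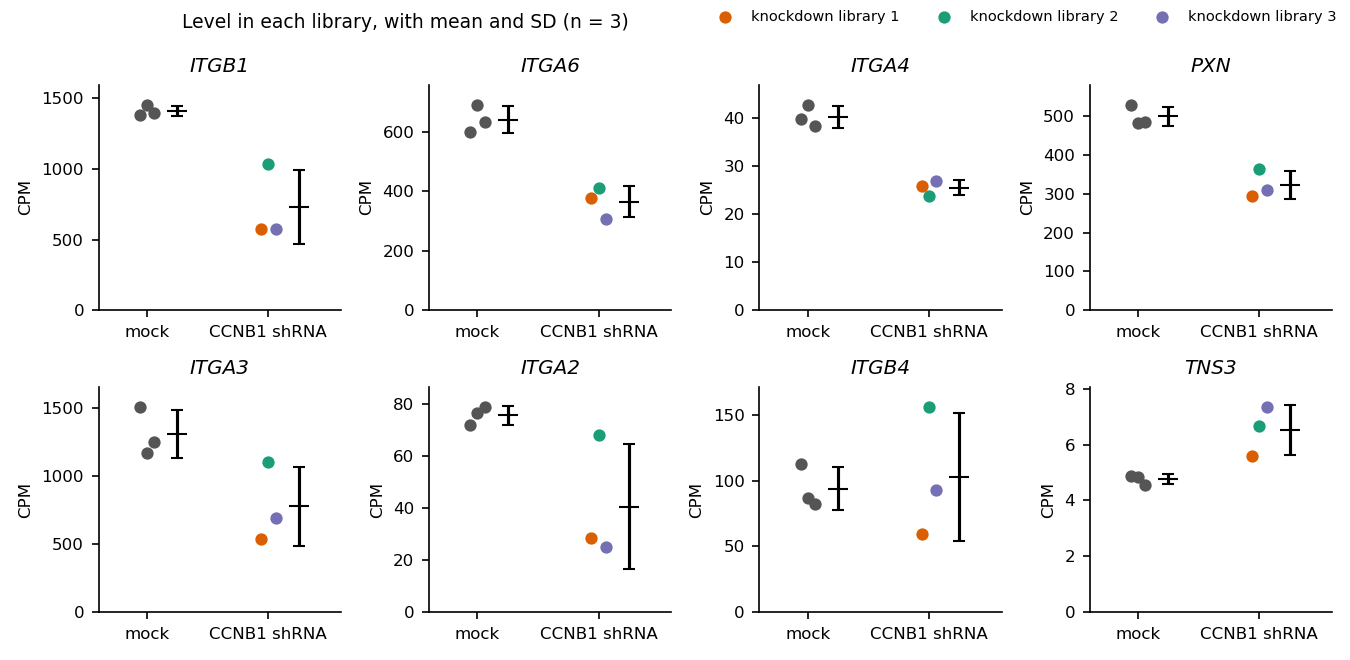
CPM of 8 members in each library (grey, mock; coloured, knockdown), with a horizontal line for the mean and bars for the SD over n = 3 libraries. Knockdown points lie below all mock points for ITGB1, ITGA6, ITGA4, PXN, ITGA3 and ITGA2, on both sides of them for ITGB4 and above them for TNS3.

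On the FPKM scale, the mock libraries' most abundant subunit was ITGB1, at 231 ± 11.5 FPKM (SD, n = 3), second in the set after ACTN4 at 360.1 ± 51.1. FLNA followed at 165 ± 27.6, then ITGA3 at 131 ± 14.7 and ITGA6 at 96.4 ± 9.25 FPKM. No mock library of one overlapped those of the next, while ITGA6 overlapped the next in order, VASP at 80.7 ± 13.9. The other alpha subunits stayed at or under 18.2 ± 1.12 FPKM, the value of ITGA5. With the hairpin, ITGB1 was at 123 ± 42.8 FPKM and came after FLNA, and ITGA6 was at 56.8 ± 8.74 FPKM.

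**Figure D3:**
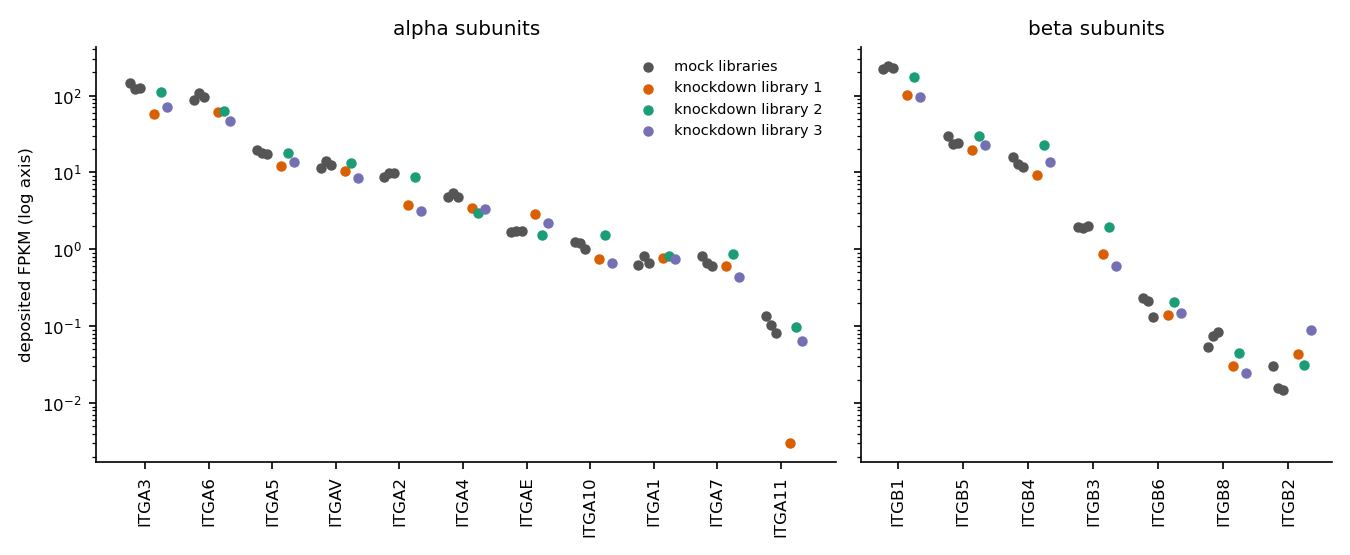
Deposited FPKM of the 18 integrin subunits in each library on a log axis, ordered by the mock mean (grey, mock; coloured, knockdown libraries 1 to 3). ITGB1, ITGA3 and ITGA6 lead, and the knockdown points of libraries 1 and 3 lie below mock for most subunits.

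Summed over the beta subunits, the transcript level was 269.6, 282 and 266 FPKM in mock libraries and 131, 227 and 133 FPKM in knockdown libraries. Summed over the alpha subunits, it was 285, 279 and 268 FPKM and 153, 223 and 150.1 FPKM. For both sums, every knockdown library was below every mock library, library 2 by the least. The means were 273 ± 8.63 against 164 ± 54.9 FPKM for beta and 277 ± 8.63 against 175 ± 40.99 FPKM for alpha subunits (SD, n = 3). The sums mainly restate a few abundant genes. Nearly all of the fall in the beta sum was that of ITGB1, from a mean of 231 to 123 FPKM. Most of the fall in the alpha sum was that of ITGA3, from 131 to 80.1 FPKM, and ITGA6, from 96.4 to 56.8 FPKM.

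ITGB1 made up a smaller share of the beta pool in every knockdown library. ITGB1 made up 82.1, 86.3 and 85.5% of the summed beta-subunit FPKM in mock libraries and 77.0, 75.9 and 72.1% in knockdown libraries. All 3 knockdown shares, that of library 2 included, were below all 3 mock shares. The difference was -9.61 percentage points, with p = 0.1 in a two-sided exact permutation test, the smallest p that 3 against 3 libraries allow, and -10.1 points without library 2. The shares of ITGB5 and ITGB4 were 9.56% ± 1.42 and 4.99% ± 0.819 in mock and 15.0% ± 1.99 and 9.17% ± 1.81 in knockdown libraries (SD, n = 3). The summed level fell, so these shares rose with log2 fold changes of only -0.17 and 0.13.

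In the alpha pool, 6 of the 11 subunits had every knockdown share above every mock share and none had every share below. ITGA5 made up 6.85, 6.45 and 6.46% of the summed alpha-subunit FPKM in mock libraries and 7.97, 7.97 and 9.24% in knockdown libraries, and ITGAV 3.95, 5.07 and 4.63% and 6.79, 5.90 and 5.72%. The other 4, ITGA1, ITGA7, ITGA10 and ITGAE, each made up at most 1.90% in any library. ITGA7 and ITGA10 cleared mock narrowly, with lowest knockdown shares of 0.294% and 0.445% against highest mock shares of 0.291% and 0.442%. Shares are parts of a pool whose sum fell, so a share can rise while the level falls. The log2 fold changes of ITGA5, ITGAV, ITGA7 and ITGA10 were -0.37, -0.28, -0.18 and -0.29. Such shares have no counterpart over all genes. ITGA6 made up 30.9, 38.2 and 35.5% of the summed alpha-subunit FPKM in mock libraries and 39.6, 28.2 and 31.1% in knockdown libraries, which overlapped (difference -1.86 points, exact permutation p = 0.8). ITGB1 FPKM divided by the summed FPKM of its 10 alpha partners in the set was 0.782, 0.879 and 0.855 in mock and 0.672, 0.779 and 0.646 in knockdown libraries. This ratio was added after the values were seen and was not tested. Its lowest mock value, in library 1, was just above its highest knockdown value, in library 2.

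**Figure D4:**
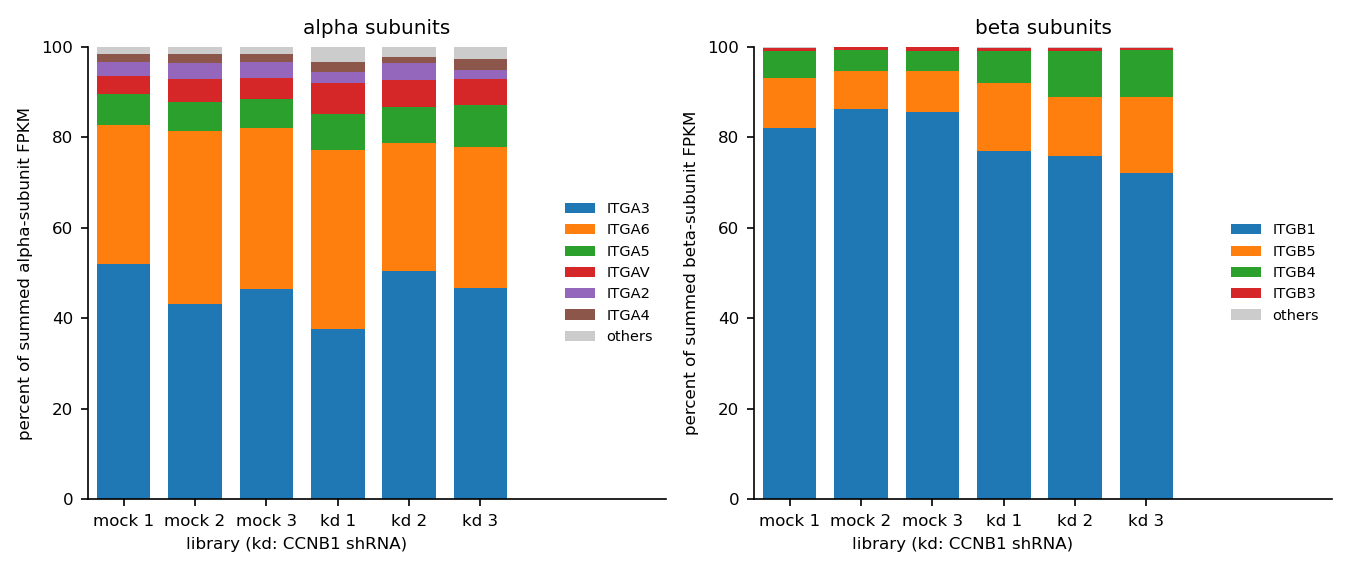
Share of each integrin subunit, in percent, in the summed FPKM of the alpha subunits (left) and the beta subunits (right) in each of the 6 libraries (kd, CCNB1 hairpin). The ITGB1 part is 82.1% to 86.3% of the beta bars in mock and 72.1% to 77.0% in knockdown libraries, and the ITGB5 and ITGB4 parts are larger there.

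The 4 talins and kindlins, which activate integrins from inside, had a median log2 fold change of -0.03. TLN1, the talin most cells use, was at 741, 594 and 590.1 CPM in mock libraries and 394, 544 and 539 CPM in knockdown libraries. The groups did not overlap, but mock library 1 was high, and the log2 fold change was -0.38 (SE 0.16, adjusted p = 0.312) with all libraries. TLN2, the second talin, had a log2 fold change of 0.07 that was -0.12 without library 2. FERMT2 (kindlin-2) was at 93.9 ± 2.60 and 88.7 ± 5.22 CPM (SD, n = 3), and FERMT1 (kindlin-1) at 11.9 ± 0.625 and 12.1 ± 2.67 CPM, each with overlapping groups.

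Among the kinases, PTK2, the gene of focal adhesion kinase, was at 392, 399.6 and 363 CPM in mock libraries and 261, 377 and 272 CPM in knockdown libraries. Library 2 lay within the mock range, and the log2 fold change was -0.34 (SE 0.16, adjusted p = 0.341) with it and -0.53 (adjusted p = 0.0111) without it. SRC, which phosphorylates focal adhesion proteins together with that kinase, was at 48.1 ± 5.25 and 49.6 ± 2.48 CPM (SD, n = 3), a log2 fold change of 0.04 (SE 0.13). ILK, a pseudokinase that scaffolds beta tails to parvins, had a log2 fold change of -0.21, and its counts are uncertain because 78.5% of its exon length overlaps TAF10 and other genes of the opposite strand.

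The 10 adaptors had a median log2 fold change of 0.02, with 4 lower and 6 higher. PXN, whose protein paxillin recruits kinases to the adhesion, was at 529, 483 and 487 CPM in mock libraries and 295, 364 and 310.0 CPM in knockdown libraries. Every knockdown library was below every mock library. Its log2 fold change was -0.63 (SE 0.13, adjusted p = 0.102 in edgeR, 0.00131 in DESeq2), a mean 1.55-fold lower, and -0.73 (adjusted p = 0.00284) without library 2. PXN-AS1, on the opposite strand, overlaps part of its exons, 12.4% of which are shared with such transcripts, and no overlapping transcript held more than 1233 counts over all libraries against 71716 of PXN.

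The adaptors that work beside paxillin were near the mock level. BCAR1 (p130Cas) was at 147 ± 26.3 and 147 ± 21.3 CPM and its partner CRK at 172 ± 4.15 and 178 ± 7.41 CPM (SD, n = 3), log2 fold changes of 0.00 (SE 0.16) and 0.04 (SE 0.11). GIT1 and ARHGEF7, which bind paxillin as a complex that regulates Rac and Arf, had log2 fold changes of 0.22 and 0.04. LIMS1 (PINCH-1), PARVA and PARVB (parvins), which form a complex with ILK, had -0.19, -0.01 and -0.15. All of these overlapped between groups, and LIMS1 has near-identical copies that could share its reads.

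The tensins link beta tails to actin. TNS3 was at 4.89, 4.83 and 4.57 CPM in mock libraries and 5.58, 6.68 and 7.33 CPM in knockdown libraries, so every knockdown library was above every mock library. Its log2 fold change of 0.45 (SE 0.17) had an adjusted p of 0.265. TNS1 was at 1.64 ± 0.456 and 1.91 ± 0.402 CPM (SD, n = 3), with overlapping groups.

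All 6 actin linkers had negative log2 fold changes, with a median of -0.23, but mock library 1 was the highest or near the highest for most of them and knockdown library 1 the lowest. FLNA, filamin A, which crosslinks actin, was at 2171, 1576 and 1613 CPM in mock libraries and 1282, 1690.2 and 1707 CPM in knockdown libraries. Knockdown libraries 2 and 3 lay inside the mock range. ACTN4 and ACTN1, the alpha-actinins of non-muscle cells, had log2 fold changes of -0.18 (SE 0.15) and -0.26 (SE 0.16), and VCL, vinculin, -0.14 (SE 0.13, and -0.23 without knockdown library 2). AP3M1, on the opposite strand, overlaps 11.1% of the exon length of VCL. It held 16057 counts against 86204 of VCL, so the counts of VCL are uncertain. For ACTN4, CAPN12 overlaps 14.2% of the exon length but held only 500 counts, against 368880 of ACTN4.

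VASP, which extends actin filaments at the adhesion, was at 324, 232 and 334 CPM in mock libraries and 177, 216 and 247 CPM in knockdown libraries, which overlapped in knockdown library 3. Its log2 fold change was -0.48 (SE 0.18, adjusted p = 0.252), and that of its binding partner ZYX, zyxin, -0.37 (SE 0.18, adjusted p = 0.377). Without mock library 1 the median of the actin linkers was -0.13, while those of the alpha and beta subunits were -0.34 and -0.44. The log2 fold changes of FLNA and ACTN4 were then -0.04 and -0.04.

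**Figure D5:**
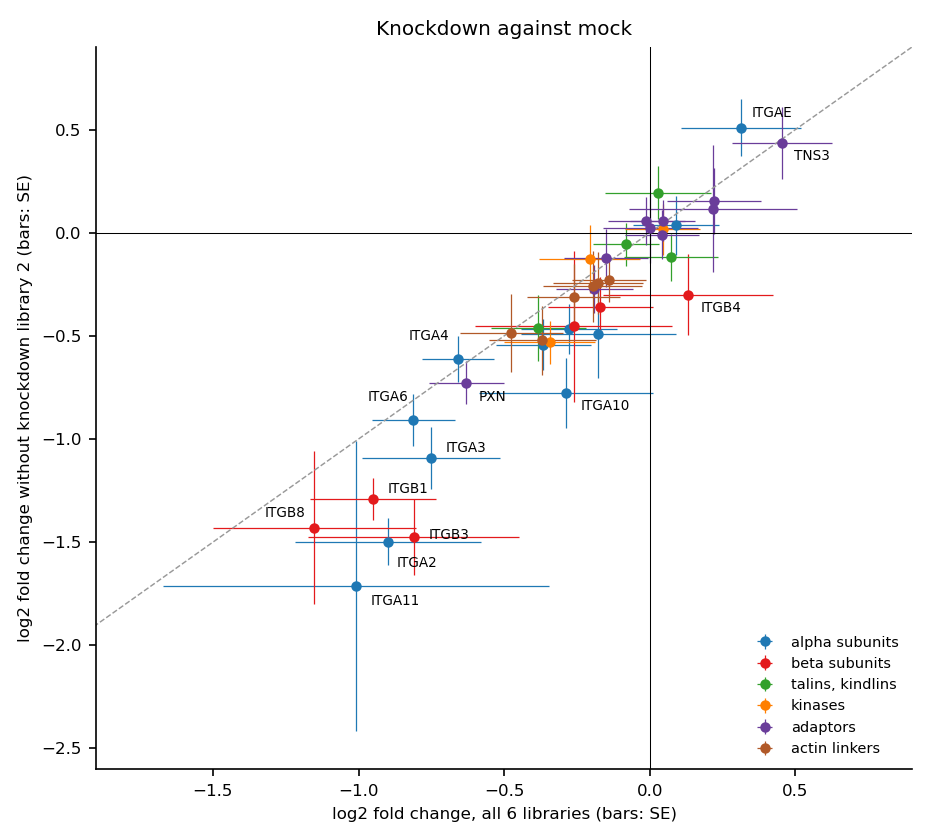
Log2 fold change of each tested member with all 6 libraries (horizontal axis) and without knockdown library 2 (vertical axis), with bars for SE and a dashed line where both are equal. Integrin subunits such as ITGB1, ITGA2, ITGA3 and ITGB3 lie below the line, ITGA4, ITGA6 and PXN near it, and ITGB4 is the labelled gene with opposite signs.

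Genes around the integrins were read from lists that hold no member. Of 15 membrane proteins that associate with integrins, 12 (80.0%) were lower, beside 46.7% of all genes. Their median log2 fold change was -0.19, and edgeR called 0. DESeq2 called 3 lower (20.0%), beside 2.18% of all genes. CD9, a tetraspanin, was at 219, 201 and 204 CPM in mock libraries and 84.0, 137 and 81.9 CPM in knockdown libraries, with no overlap (log2 fold change -1.04, SE 0.20, adjusted p = 0.0959 in edgeR, 8.8e-05 in DESeq2). The urokinase receptor PLAUR was at 529.8 ± 78.9 and 295 ± 84.1 CPM, and the matrix co-receptor SDC4 at 149.8 ± 9.80 and 89.4 ± 24.8 CPM (SD, n = 3), DESeq2 adjusted p 0.00336 and 0.00868. Next by p came CD82, another tetraspanin, DAG1 (dystroglycan, a laminin receptor) and CD47, with log2 fold changes of -0.50, -0.31 and -0.33. Without library 2, edgeR called 7 of the 15 lower, beside 7.58% of all genes, and 1 higher, beside 6.24%. The log2 fold changes were then -1.33 (adjusted p = 0.000178) for CD9, -1.11 (adjusted p = 0.00128) for PLAUR and -0.99 (adjusted p = 0.00123) for SDC4, and those of CD82, DAG1 and CD47 were -0.73, -0.39 and -0.53 (adjusted p = 0.00671, 0.0333 and 0.0154).

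Of 23 integrin ligands, 18 were tested, with 13 lower (72.2%, beside 46.7% of all genes) and 5 higher. Their median was -0.25 on the log2 scale, with 0 calls by edgeR. SPP1, osteopontin, a ligand of alpha-v integrins, was at 44.1, 32.9 and 33.4 CPM in mock libraries and 8.05, 18.2 and 11.4 CPM in knockdown libraries, with no overlap (log2 fold change -1.55, SE 0.27, adjusted p = 0.0899 in edgeR, 1.42e-06 in DESeq2). The laminin chains LAMA5 and LAMC1 had log2 fold changes of -0.67 and -0.45 and no overlap between groups. DESeq2 gave LAMA5 an adjusted p of 0.0438. Without library 2, edgeR called 7 of the 18 ligands lower and 3 higher, beside the same 7.58% and 6.24%, with log2 fold changes of -1.92 (adjusted p = 0.000524) for SPP1, -0.92 (adjusted p = 0.00611) for LAMA5 and -0.65 (adjusted p = 0.00510) for LAMC1.

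CYR61 and CTGF, secreted matricellular proteins that bind integrins, were high in the same libraries in which ITGA2 and ITGB1 were lowest. CYR61 was at 366, 318 and 359.6 CPM in mock libraries and 761, 313 and 786 CPM in knockdown libraries, and CTGF at 61.7, 57.2 and 59.7 and 138, 45.8 and 127 CPM. In library 2 both were below every mock library. Their log2 fold changes were 0.83 and 0.80 (adjusted p = 0.227 and 0.290), and 1.15 and 1.16 (adjusted p = 0.000299 and 0.000237) without it.

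Of 44 further adhesion components, 40 were tested, 20 lower and 20 higher, with a median of 0.00, and edgeR called 0. DESeq2 called 1 lower (2.5%), a share near the 2.18% of all genes. It was PALLD (palladin, an actin-bundling protein), with a log2 fold change of -0.67 (adjusted p = 0.0369 in DESeq2). The Src-family kinases FYN and YES1 had log2 fold changes of -0.43 and -0.57, and CSRP1, a LIM protein of actin bundles, -0.24. CAV1, caveolin-1, was at 259, 249 and 244 CPM in mock libraries and 314, 289 and 406 CPM in knockdown libraries, above mock in all 3 (adjusted p = 0.227). FLNC, filamin C, had a log2 fold change of 0.57 with overlapping groups. Without library 2, edgeR called 4 of the 40 lower and 2 higher, shares near the 7.58% and 6.24% of all genes. PALLD was then at -0.95 (adjusted p = 0.00150), FYN at -0.58 (adjusted p = 0.00746) and YES1 at -0.83 (adjusted p = 0.00512), all log2 fold changes, and CAV1 and FLNC at 0.52 and 0.77 (adjusted p = 0.0251 and 0.0140). Of 8 integrin subunits outside the set, 3 passed the filter. The median of their log2 fold changes was 0.16, and edgeR called 1 of them lower without library 2.

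Some markers of cell state also differed. The mesenchymal markers summed to 3319 to 3471 CPM in mock libraries and 1886 to 3541 CPM in knockdown libraries. Nearly all of it was VIM (vimentin), at 3181, 3283 and 3145 and 1741, 3331 and 1878 CPM, so the sum describes VIM and not the list. The epithelial markers summed to 603 to 687 CPM in mock and 837 to 1647 CPM in knockdown libraries, carried by the keratins KRT8, at 356, 309 and 343 and 794, 456 and 931 CPM, and KRT18. This sum likewise describes these keratins and not the list. CDH1 (E-cadherin) held at most 2 counts in any library. Fibroblast markers summed to 1.45 to 1.76 CPM in mock and 2.05 to 3.71 CPM in knockdown libraries. In library 2, VIM was above every mock library. KRT8 was nearest to mock there of the 3 knockdown libraries, but still above every mock library. Every knockdown library was thus above every mock library for KRT8, as for 10.9% of all tested genes. The part of these states in the integrin values was not tested, and in bulk RNA fewer cells of a type and less RNA per cell cannot be told apart.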

How the data were processed

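RNA-seq libraries of 3 mock and 3 knockdown samples were grouped by their titles. The authors deposited 2 tables, one of whole-number counts and one of FPKM. The submitters' processing notes name HISAT2 2.1.0, featureCounts 2.0.3, bcl2fastq 2.20 and DESeq2, with the build GRCh38.p13. Strand setting, annotation release and the handling of reads with several hits are not given in the sources used here. Genes with overlapping exons or near-identical copies are therefore uncertain. The length implied by counts and FPKM matched GENCODE 29 exon length within 0.5 bases for 97.4% of genes and for 39 of 41 members, and gene positions come from that release. No columns of other samples and no rows without a gene were present (0 of each).

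Counts were fitted with edgeR 4.0.16 in R 4.3.3 (filterByExpr, TMM, quasi-likelihood F test, group only). Adjustment was by Benjamini-Hochberg over 17349 genes, with calls at 0.05. The SE of a log2 fold change is its size over the root of the F statistic, and log2 CPM per library used a prior count of 2. The common biological coefficient of variation came to 17.6%. FPKM gave levels between genes and subunit shares, tested by exact permutation. No 2 libraries matched within counting noise (chi-square per degree of freedom at least 14.2). Alternatives were DESeq2 1.42.0, RLE and upper-quartile scaling, no filter, the replicate number as a block and each library left out. The fit was tested on simulated counts. Promoter windows and motif counts came from RefSeq tables, read with Python 3.11.15, numpy 2.4.6 and pandas 2.3.3, and plots were drawn with matplotlib 3.10.9.

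The members, gene lists and tests were chosen with earlier results of these data known. The genes named are all 41 members, CCNB1, cell type markers and, per further list, up to 6 genes with the smallest p and at least 5 CPM in the higher group. One list entry, an alias of ITGB1BP1, was not matched. Some results of the further lists are not reported here.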

Additional observations from a re-analysis of the deposited data

How the results depend on the processing

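The count of members called depended on the processing and on 1 library. It was 0 with TMM, RLE or upper-quartile scaling, 5 with DESeq2 (564 genes in all, with 1011 genes given no adjusted p) and 8 with no filter on low counts (1077 genes, with 1.95% of all genes called lower and 1.17% higher; the 8 were ITGA2, ITGA3, ITGA4, ITGA6, ITGB1, ITGB3, PXN and VASP, all lower). Leaving out 1 library gave 0 to 13 members and 1 to 2453 genes, in each case with the highest value without knockdown library 2. In the further lists, which held 3 to 40 tested genes each, the count was 0 with all libraries in edgeR. It was 8 with DESeq2, beside 2.18% of all genes called lower and 1.27% higher. It was 14 with no filter, beside the 1.95% and 1.17% above, and 0 to 30 on leaving out a library. Without knockdown library 2, 7.58% of all genes were called lower and 6.24% higher. The cause was not tested.

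No label ties a replicate number to a culture or day, and whether the numbers pair the libraries was not settled. The correlations of same-numbered deviations from the group mean were -0.19, 0.11 and 0.07. Those of differently numbered libraries ranged from -0.35 to 0.30, so these values cannot decide it. With the number as a block, edgeR called 162 genes, 3 members (ITGA2, ITGA6 and ITGB1) and 4 genes of the further lists.

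The members' median log2 fold change was -0.23 to -0.14 over the other settings and -0.31 to -0.09 on leaving out a library, the extremes without knockdown library 2 and without mock library 1. Scaling moved the median of all genes by at most 0.05. The ITGB1 share difference was -10.9 to -8.16 points on leaving out a library, and that of ITGA6 -5.17 to 0.52, reversed without knockdown library 2.

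Of 440 fits of a member under an alternative, 393 kept direction and side of the threshold, 29 passed it, 0 lost it and 18 reversed. For 32 of the 40 members no alternative reversed the direction. The reversals were FERMT1 at -0.012 with no filter, BCAR1 at -0.015 with DESeq2, -0.015 with RLE scaling and -0.037 with no filter, and PARVA at 0.039 with upper-quartile scaling. On leaving out a library, log2 fold changes ranged -0.49 to 0.020 for ITGA7, -0.30 to 0.37 for ITGB4, -0.12 to 0.16 for TLN2, -0.13 to 0.19 for FERMT1, -0.043 to 0.11 for SRC, -0.12 to 0.15 for BCAR1, -0.028 to 0.11 for ARHGEF7 and -0.12 to 0.056 for PARVA.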

Other observations

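A heptamer picked from earlier results of these data, GTACTAT, was looked for in the longest 3′ untranslated region of the members. It was in 891 of 13174 genes searched (6.76%) and in 1 of the 40 tested members, PARVA, at chr11:12531114-12531142 on the plus strand of GRCh38, shown with the heptamer in capitals because it is the one match.
PARVA site: gctataatactGTACTATaaagtctagct
The log2 fold change of PARVA was -0.01 (SE 0.13), and the median of the other tested members was -0.20.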
